A study of Mus musculus with 6 samples.

Results

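The genes examined here are 10 components of the Notch pathway, measured in cervical motor neurons of mouse embryos. They are the receptor genes Notch1, Notch2 and Notch3, the ligand genes Dll1, Dll3, Jag1 and Jag2, the coactivator gene Maml3, and the effector genes Hes5 and Hes6. Every probe that the platform annotation assigns to one of these symbols was taken, detected or not, which gave 14 of the 45281 probes on the array. Hes6 had 3 probes, Notch2 and Hes5 had 2 each, and each of the others had 1. Motor neurons were collected by fluorescence-activated sorting at stage e12.5 from embryos carrying the HB9::GFP reporter, which all 6 samples share. There were 3 wild-type samples and 3 labelled Hox5 mutant, each on 1 Illumina bead array. The series title gives the mutant genotype as Hoxa5fl/fl::olig2CREHoxc5-/-, a conditional Hoxa5 allele with a Cre driver from Olig2, a gene of motor neuron progenitors, together with loss of Hoxc5. Both groups had a mixed c57/bl6, balbc and fvb background. The labels do not say how many embryos a sample holds, so the p-values reflect only how far these samples spread, which may be technical.

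Notch receptors are transmembrane proteins that are cut when a Delta or Jagged ligand on a neighbouring cell binds them. The freed intracellular part joins the DNA-binding protein Rbpj and a Mastermind coactivator, and this complex switches on Hes and Hey genes. In the embryonic spinal cord, Hes1 and Hes5 keep neural progenitors from differentiating, while cells that begin to differentiate express Delta ligands and lower their own Notch response. The pathway also acts in blood vessels, where Notch3 is a receptor of the mural cells around them.

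A signal was detected at a detection p under 0.05, and a probe was tested where it was detected on at least 3 of the 6 arrays. The test was limma on log2 intensities, with 1 probe per gene (the brightest), 13638 features in all, and Benjamini-Hochberg adjustment over all of them. Differences are the arrays labelled mutant minus the wild-type arrays on the log2 scale. Intensities of different probes are not compared, since a probe's brightness also depends on its sequence.

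Before the members, 2 facts about the arrays bear on every value. The probes of the targeted genes did not settle the genotype. Hoxa5 was detected on all 6 arrays, at log2 intensities of 14.04, 14.00 and 13.95 on wild-type replicates 1, 2 and 3 and at 13.15, 13.81 and 13.68 on the mutant replicates, lower without overlap. Hoxc5 stood at 6.48, 6.60 and 6.69 against 6.59, 7.66 and 7.72, with mutant replicates 2 and 3 above every wild-type array. Neither passed, with a limma adjusted p of 0.997 each. No source used here says where these probes lie relative to the deleted exons, so they do not check the genotype and the group is named by its label. The second fact is that mutant replicate 1 stood apart in markers of other cells. Of 12 motor neuron markers all were tested and 10 were detected on every array, and their summed signal was 9330 to 10068 on the wild-type arrays and 5965, 11481 and 7226 on mutant replicates 1, 2 and 3. Signals of blood, endothelium, and pericytes and mesenchyme were highest on mutant replicate 1, with list medians 4.47, 2.98 and 3.46 above the wild-type mean. Results that rest on this array are given with and without it.

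Of the 10 genes, 8 were tested and 2, Notch2 and Dll3, were too dim. No member passed: relative to wild type, 4 were higher and 4 lower (52.6% of all features were lower), with a median difference of −0.01 (range −1.22 to 0.33), beside a median of −0.01 over all features. The share of all features with an adjusted p under 0.05 was 0% as well. An unadjusted p under 0.05 was reached by 1 of the 8 members, Maml3, in the lower direction, as did 0.983% of all features, and by 0 in the higher direction, as did 0.851%. In the normalized values, Maml3 and Dll1 were the 2 members whose groups did not overlap. Both were lower on the arrays labelled mutant, a pattern shown by 2.84% of all features. Higher without overlap were 0 members, a pattern of 2.66%. The members were listed with earlier results of these arrays known, so these counts beside the shares of all features are a description. Without mutant replicate 1, 7 of the 8 were lower, with a median of −0.21, and none passed. In that fit 6690 of the 13638 features were lower, with a median of 0.003. With both arrays numbered 1 left out, 5 of the 8 were lower, and Notch1 (0.004), Jag2 (0.16) and Hes5 (0.13) were higher. In the fit without mutant replicate 1 alone, 9 of 11 tested neural progenitor markers were also lower (median −0.14), as were 9 of 12 motor neuron markers (−0.06). Also lower were 4 of 6 endothelium markers (−0.16) and 4 of 7 pericyte and mesenchyme markers (−0.17). So were 5 of 7 newborn neuron markers (−0.14), both sensory neuron markers (−0.21) and 4 of 7 blood markers (−0.001). Other lists leaned higher: 7 of 11 interneuron markers (0.03), 2 of 3 neural crest and glia markers (0.15) and the 1 macrophage marker tested (0.12). The part of these cells in the members' values was not tested. In sorted bulk samples, fewer cells of a type and less RNA per cell cannot be told apart.

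**Figure D1:**
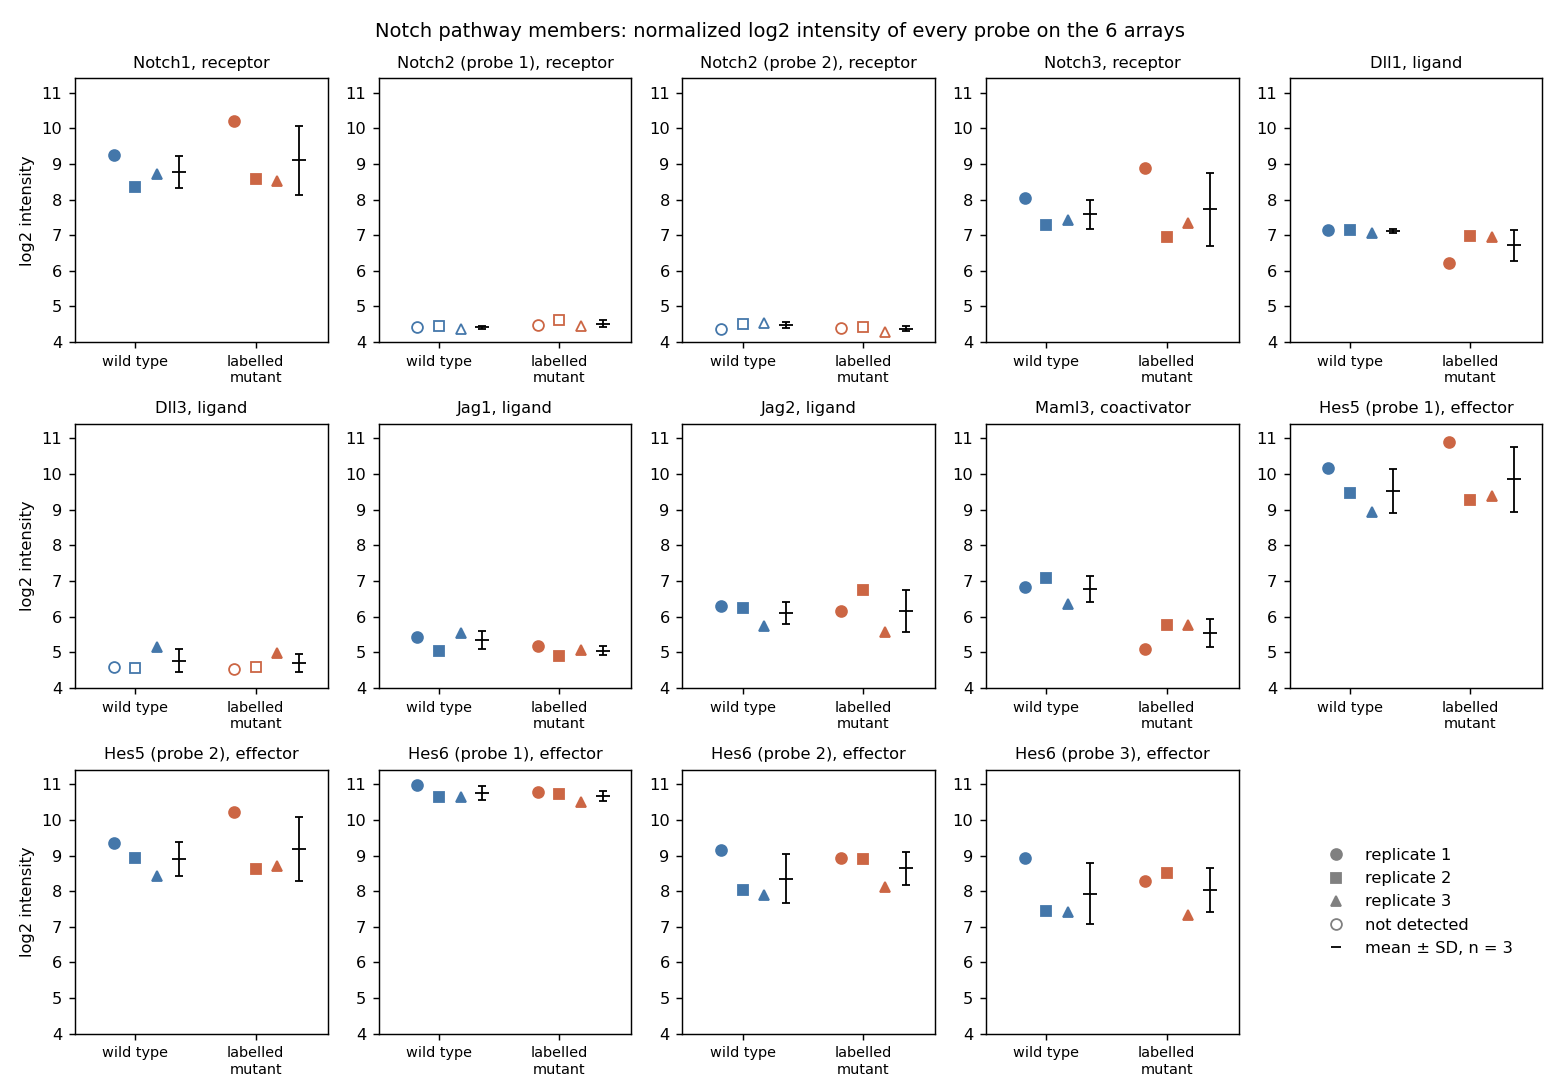
Normalized log2 intensity (vertical axis) of each of the 14 probes of the 10 genes on the 3 wild-type arrays (blue) and the 3 arrays labelled mutant (orange), with replicate numbers as symbols, open symbols where the probe was not detected, and black bars for mean ± SD. Notch1, Notch3 and both Hes5 probes are highest on mutant replicate 1, Maml3 lies lower on all 3 arrays labelled mutant, and both Notch2 probes lie near background.

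Maml3 had the largest difference of the 8 members. It encodes a Mastermind-like protein, which binds the Notch intracellular part with Rbpj and recruits the machinery that activates transcription. Its log2 intensity was 6.84, 7.09 and 6.37 on wild-type replicates 1, 2 and 3, and 5.10, 5.77 and 5.78 on mutant replicates 1, 2 and 3. The highest mutant value lay below the lowest wild-type value. As scanned, before any background correction, its signal was 207.5, 188.8 and 152.2 on the wild-type arrays and 114.0, 137.6 and 143.6 on the arrays labelled mutant. The unprocessed values thus separated in the same way, although 114.0 was close to background, with a detection p of 0.0235. The means were 6.77 ± 0.369 (SD, n = 3) and 5.55 ± 0.390 (SD, n = 3), a difference of −1.22 (95% confidence interval −1.85 to −0.581), or 2.32-fold lower signal on the arrays labelled mutant. Its unadjusted limma p was the ninth smallest of the 13638 features and the adjusted p was 0.997, so the difference did not pass. Maml3 entered the list with its difference in earlier results of these arrays known, so its place near the top of the ranking is a description.

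The Maml3 difference did not rest on mutant replicate 1. Without that array it was −0.99 (−1.54 to −0.443), and without both arrays numbered 1 it was −0.96 (limma adjusted p 1 and 0.999). The summed signal of motor neuron markers differed among the arrays labelled mutant, as given above, and its part in the Maml3 values was not tested. The size depended on background correction, being −0.58 without it and −0.58 in the authors' normalized values. Over all 19 alternatives that gave a value it ran from −1.42 to −0.58, always negative, with adjusted p from 0.834 to 1. Only 1 probe represents Maml3, so no other probe on these arrays checks it.

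The other Mastermind genes did not show this difference. Maml1 was at 6.20 ± 0.121 (SD, n = 3) in wild type and 6.29 ± 0.0842 (SD, n = 3) in the other group, a difference of 0.09 (95% interval −0.253 to 0.425). Maml2 was at 9.55 ± 0.0632 (SD, n = 3) and 9.74 ± 0.181 (SD, n = 3), a difference of 0.20 (−0.166 to 0.558), and its dimmer kept probe differed by 0.06. The intervals of both lay above that of Maml3, whose upper end was −0.581, but a difference between these genes was not itself tested. Among all named genes, the 2 whose centred log2 values over the 6 arrays were nearest to those of Maml3 were Prdm13 and Eml6. Their root mean square differences from it were 0.26 and 0.28, wider than the corresponding distance of any other member examined in this way.

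**Figure D2:**
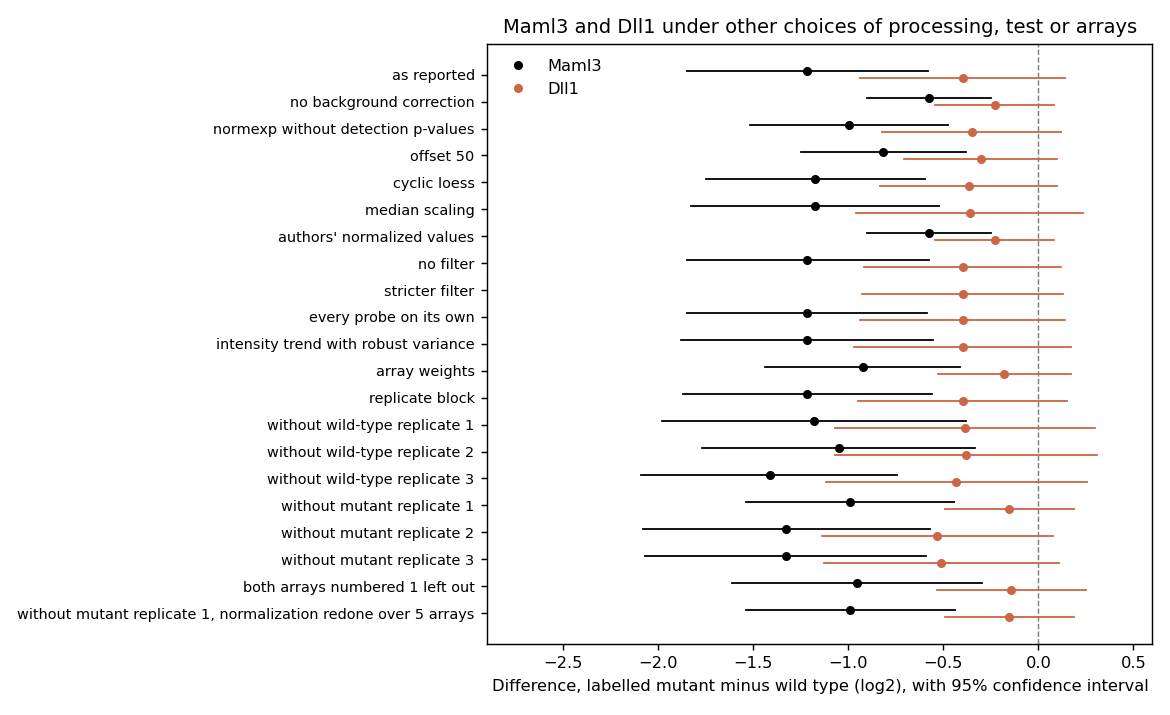
Difference between the groups (horizontal axis, log2) with its 95% confidence interval for Maml3 (black) and Dll1 (orange) as reported and under 20 other choices of processing, test or arrays. Every point is below 0, the Maml3 intervals stay below 0 and those of Dll1 cross it, and Maml3 has no value under the stricter filter.

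The receptor genes differed between arrays more than between groups. Notch1 had log2 intensities of 9.25, 8.36 and 8.72 on wild-type replicates 1, 2 and 3 and of 10.21, 8.59 and 8.51 on mutant replicates 1, 2 and 3. Mutant replicate 1 was the highest array and wild-type replicate 1 the next, and the other 4 arrays lay between 8.36 and 8.72. The difference was 0.32 (95% interval −0.822 to 1.47) over all 6 arrays, with an SD of 0.963 within the arrays labelled mutant and 0.448 within the wild type. Without mutant replicate 1 it turned to −0.23 (−0.86 to 0.393), and with both arrays numbered 1 left out it was 0.004 (−0.465 to 0.472). None of these passed (limma adjusted p 0.997, 1 and 0.999).

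Notch3, the receptor gene of mural cells that is also expressed in neural progenitors, had the same order of its top arrays. It measured 8.04, 7.28 and 7.44 on the wild-type arrays and 8.89, 6.96 and 7.34 on the mutant arrays. The groups overlapped, with mutant replicate 1 above every wild-type array and mutant replicate 2 below them all. The difference was 0.14 (95% interval −1.04 to 1.33) and became −0.43 (−1.06 to 0.187) without mutant replicate 1 (limma adjusted p 0.997 and 1). With both arrays numbered 1 left out it was −0.21 (−0.698 to 0.283). Both Notch2 probes were detected on 0 of 6 arrays, with log2 intensities from 4.37 to 4.63 for one and 4.29 to 4.53 for the other. In a fit of every probe without a filter they differed by 0.10 (−0.103 to 0.301) and −0.10 (−0.305 to 0.107), opposite in sign. Signal at this level has no order, so these arrays show only that Notch2 was not above background at these probes.

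Among the ligands, Dll1 was the one whose groups did not overlap after normalization. Dll1 encodes a Delta ligand made by newly forming neurons. Its log2 intensity was 7.14, 7.16 and 7.05 on wild-type replicates 1, 2 and 3, and 6.22, 6.98 and 6.94 on mutant replicates 1, 2 and 3. The wild-type arrays lay within a narrow range, mutant replicates 2 and 3 just under it, and mutant replicate 1 well below. As scanned, its signal was 237.5, 194 and 196.6 on the wild-type arrays and 154.9, 212.4 and 216.7 on the arrays labelled mutant. The unprocessed values thus overlapped, with mutant replicates 2 and 3 above wild-type replicates 2 and 3. The difference was −0.40 (95% interval −0.939 to 0.14) and did not pass (limma adjusted p 0.997). Without mutant replicate 1 it was −0.15 (−0.494 to 0.186). The difference was thus smaller without that array. Of 10 newborn neuron markers 7 were tested. Their sum was 4308 to 5932 on the wild-type arrays and 5157, 3644 and 4391 on mutant replicates 1, 2 and 3. Of the 7, 3 had their lowest value on mutant replicate 1 and 2 their highest. The sum over interneuron markers, of which 11 of 13 were tested, was 12618 to 16250 on the wild-type arrays and 5339, 14075 and 13558 on the mutant replicates, and 10 of the 11 had their lowest value on mutant replicate 1. The part of these cells in the Dll1 values was not tested.

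Jag1, a Jagged ligand gene, lay close to background, with a detection p up to 0.0481. Its values were 5.44, 5.04 and 5.54 on the wild-type arrays and 5.17, 4.91 and 5.07 on the arrays labelled mutant. Wild-type replicate 2 fell among the mutant values. The difference was −0.29 (95% interval −0.724 to 0.137), and −0.36 without mutant replicate 1 (limma adjusted p 0.997 and 1). Its size ranged from −0.098 without background correction to −0.44 without wild-type replicate 2, and was −0.19 without wild-type replicate 3. Jag2, the other Jagged ligand gene, measured 6.29, 6.25 and 5.75 on the wild-type arrays and 6.16, 6.76 and 5.57 on the arrays labelled mutant. Its highest and lowest arrays were both labelled mutant. The difference was 0.07 (−0.693 to 0.824), and the sign turned to −0.11 without wild-type replicate 3 and to −0.23 without mutant replicate 2. Dll3, a Delta family gene whose product is known to act inside the cell that makes it rather than to activate Notch on a neighbour, was detected on 1 wild-type and 1 mutant array, both numbered 3. Its values there were 5.15 and 4.99, against 4.53 to 4.60 on the other 4 arrays. The difference in the fit without a filter was −0.06 (−0.564 to 0.444).

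**Figure D3:**
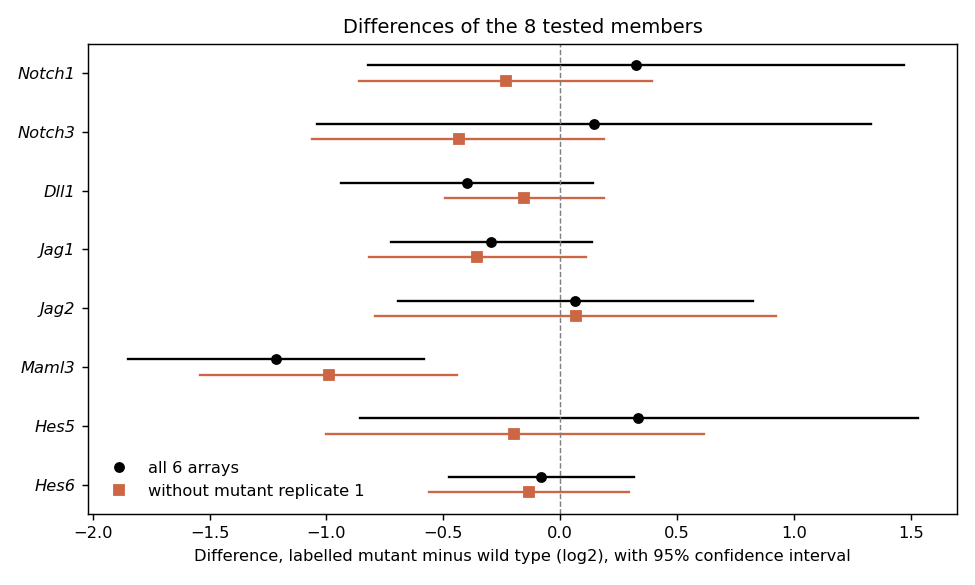
Difference between the groups (horizontal axis, log2) with its 95% confidence interval for the 8 tested members over all 6 arrays (black circles) and without mutant replicate 1 (orange squares). Only the Maml3 intervals leave out 0 in these fits, and Notch1, Notch3 and Hes5 change sign when that array is left out.

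The effector Hes5 is a repressor of neuronal differentiation and a direct target of the Notch complex. It shared its 2 highest arrays with Notch1 and Notch3, but not its lowest. Its brighter probe had log2 intensities of 10.17, 9.48 and 8.92 on wild-type replicates 1, 2 and 3 and of 10.91, 9.27 and 9.38 on mutant replicates 1, 2 and 3. Its other probe gave 9.36, 8.93 and 8.41 against 10.21, 8.61 and 8.72. Both probes put mutant replicate 1 first, wild-type replicate 1 next and wild-type replicate 3 last. The difference was 0.33 (95% interval −0.858 to 1.53) for the brighter probe and 0.28 (−0.791 to 1.35) for the other. It turned to −0.20 and −0.24 without mutant replicate 1. With both arrays numbered 1 left out, the brighter probe was at 0.13 (−0.439 to 0.691). No tested difference passed. The limma adjusted p was 0.997 for each probe over all arrays. For the brighter probe it was 1 without mutant replicate 1 and 0.999 with both arrays numbered 1 left out. The other probe was not tested with arrays left out.

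Hes6, which in neural tissue is known to promote neuronal differentiation and to oppose Hes1, had the smallest span over the arrays among the 8 tested members. Its brightest probe measured 10.98, 10.64 and 10.65 on the wild-type arrays and 10.78, 10.74 and 10.50 on the arrays labelled mutant, a span of 0.478 over all 6. The difference was −0.08 (95% interval −0.477 to 0.315; limma adjusted p 0.997). The probes disagreed in sign, since the other probes differed by 0.29 (−0.603 to 1.19) and 0.11 (−1.01 to 1.23). These dimmer probes spread more, from 7.89 to 9.14 and from 7.34 to 8.93, and wild-type replicate 1 was the highest array for all 3 probes.

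The sequences just before the starts of 4 members are shown because Notch1, Notch3 and Hes5 shared the order of their top arrays, mutant replicate 1 and then wild-type replicate 1, and Maml3 had the largest difference. Each is the 250 bases before the RefSeq transcription start in build GRCm38.p6, 5′ to 3′ on the gene's strand. Capitals mark matches to GTGGGAA or its reverse complement TTCCCAC, the core letters bound by Rbpj, searched on both strands with no other motif.
Hes5 (chr4:154960673-154960922, plus strand): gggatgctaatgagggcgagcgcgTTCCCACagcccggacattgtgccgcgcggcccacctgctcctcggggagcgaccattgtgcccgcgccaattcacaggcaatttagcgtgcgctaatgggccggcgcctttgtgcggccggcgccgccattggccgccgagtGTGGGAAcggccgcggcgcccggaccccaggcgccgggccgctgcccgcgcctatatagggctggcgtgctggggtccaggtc
Notch1 (chr2:26503823-26504072, minus strand): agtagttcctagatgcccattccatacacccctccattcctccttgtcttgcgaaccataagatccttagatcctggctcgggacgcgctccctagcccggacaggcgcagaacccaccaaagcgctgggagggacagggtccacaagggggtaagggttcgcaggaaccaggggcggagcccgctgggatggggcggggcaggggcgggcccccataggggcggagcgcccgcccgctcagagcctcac
Notch3 (chr17:32166891-32167140, minus strand): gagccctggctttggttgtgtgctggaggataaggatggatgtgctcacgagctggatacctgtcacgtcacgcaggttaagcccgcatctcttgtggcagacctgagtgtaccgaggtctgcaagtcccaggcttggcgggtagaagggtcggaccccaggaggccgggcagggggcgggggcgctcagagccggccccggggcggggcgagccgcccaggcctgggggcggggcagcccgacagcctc
Maml3 (chr3:52105007-52105256, minus strand): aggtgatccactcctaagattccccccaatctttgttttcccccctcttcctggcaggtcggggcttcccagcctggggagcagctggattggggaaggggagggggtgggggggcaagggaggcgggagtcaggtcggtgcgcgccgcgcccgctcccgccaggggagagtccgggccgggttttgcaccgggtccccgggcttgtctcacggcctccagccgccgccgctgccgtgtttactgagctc
The Hes5 window held 2 matches, whose first bases lie 226 and 83 bases before the start. At least 1 match occurs in 5.42% of the 32851 windows of this length in the table, and 2 or more in 0.161%. All 10 members had a window, 12 windows in all, and the Hes5 window was the only 1 of the 12 with a match. The absence of these letters from the other windows says nothing of the factor, and a match is no measured site.

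Among other genes known as Notch targets, some had this order and some did not. Hes1, the close relative of Hes5, measured 9.41, 8.58 and 7.88 on the wild-type arrays and 10.26, 8.39 and 8.39 on the arrays labelled mutant. Nrarp, a target that feeds back on Notch, stood at 10.27, 9.63 and 9.52 against 10.87, 9.50 and 9.48; it was picked out after its values were seen. Hey1 measured 10.83, 10.34 and 10.43 against 10.92, 10.33 and 10.45. All 3 had mutant replicate 1 first and wild-type replicate 1 next. That order was shown by 3 of the 8 tested members (Notch1, Notch3 and Hes5), 8 of 36 other pathway genes tested, 5 of which (Mfng, Dtx2, Dtx4, Ncstn and Kat2a) were not among these targets, and 10.6% of all features. Hey2 and Heyl, also picked out after their values were seen, were highest on mutant replicate 1 with wild-type replicate 1 not next. Hey2 was at 7.44 there against 5.40 to 6.22 elsewhere, and Heyl was detected on that array alone, at 6.51 against 4.39 to 4.63.

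Summed markers of several cell types were also highest on mutant replicate 1, and the sums of the progenitor and blood lists were next highest on wild-type replicate 1. Neural progenitor markers, of which 11 of 15 were tested, had a summed signal of 14474, 9819 and 11717 on wild-type replicates 1, 2 and 3 and of 26023, 10623 and 10973 on mutant replicates 1, 2 and 3, and 5 of the 11 showed the same order. Of the 11, 7 were highest on mutant replicate 1 and 1 was lowest there. Both Nkx6-2 probes were lower on that array, at −1.597 and −1.424 from the mean of the other arrays. The first probes of Sox2 and Sox3 were also lower there, at −0.297 and −0.270. Sox1, Pax6, Olig2 and Hmga2 were detected on no array. For endothelium, 6 of 12 markers were tested, and the sum was 626, 424 and 721 on the wild-type arrays and 4641, 635 and 442 on the arrays labelled mutant, with Tie1 detected on none. For pericytes and mesenchyme, 7 of 13 were tested, and the sum was 736, 679 and 686 against 7660, 752 and 538, with Tagln detected on none. In these lists wild-type replicate 1 was not the next highest array. For blood, 7 of 10 were tested, and the sum was 10678, 1530 and 1346 on the wild-type arrays and 73359, 2291 and 3130 on the arrays labelled mutant. The part of these cells in the values of Notch1, Notch3, Hes5 and the other targets was not tested. As a description of likeness, the named genes nearest to Notch1 in centred log2 values over the 6 arrays were Lockd and Sft2d2, at root mean square differences of 0.0567 and 0.0758. They were Eif4ebp1 and Rbpms for Notch3 (0.0939 and 0.112), Trip6 and Lamb2 for Hes5 (0.113 and 0.131), and Dapk3 and Pisd-ps1 for Jag2 (0.139 and 0.154).

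**Figure D4:**
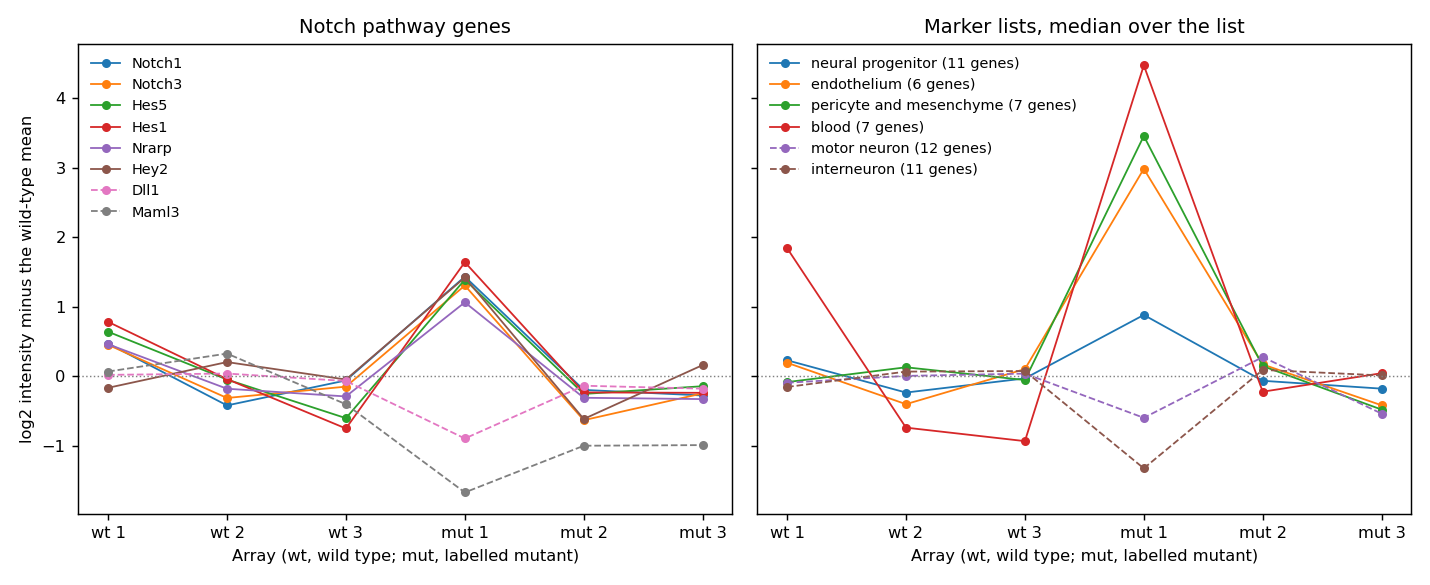
Left, log2 intensity minus the wild-type mean (vertical axis) on each array (horizontal axis) for 8 Notch pathway genes; right, the median of the same quantity over each marker list. Notch1, Notch3, Hes5, Hes1, Nrarp and Hey2 peak on mutant replicate 1, where the medians of blood, vessel and progenitor markers also peak. Dll1, Maml3 and the medians of interneuron and motor neuron markers are lowest there. The motor neuron median is −0.594 on that array and −0.534 on mutant replicate 3.

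The rest of the pathway was read from a list of 55 further genes, of which 49 had a probe and 36 were tested. None passed: 24 were higher and 12 lower, with differences from −0.51 to 0.39 and a median of 0.05, and 0 had an unadjusted limma p under 0.05. Without mutant replicate 1 the split was 17 higher and 19 lower, with a median of −0.01. Mutant replicate 1 was the highest array for 17 of the 36, where it was the highest for 25.6% of all features. Rbpj itself, the DNA-binding partner of Notch, was detected on 1 array at 1 of its 3 probes, and Lfng, a glycosyltransferase that modifies Notch, on none, so neither was tested.

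In the lower direction, the smallest unadjusted p-values belonged to Spen, Rfng and Dtx1. Spen encodes a corepressor that binds Rbpj in the absence of Notch activity. It measured 9.06, 9.32 and 9.02 on the wild-type arrays and 8.41, 8.90 and 8.91 on the arrays labelled mutant. In these normalized values its groups did not overlap. It was 1 of the 36 in this, near the 2.84% of all features that were lower without overlap. Its difference was −0.40 (95% interval −0.853 to 0.0577), −0.38 for its dimmer probe and −0.23 without mutant replicate 1. Rfng, a fringe glycosyltransferase gene, was at −0.33 and Dtx1, a Deltex ubiquitin ligase gene, at −0.21. Without mutant replicate 1, Rfng was at −0.22 and Dtx1 at −0.13. In the higher direction the smallest unadjusted p-values belonged to Neurl1a, Maml2 and Cir1. Neurl1a encodes a ubiquitin ligase of the Neuralized family, which in flies acts on Delta, and was at 0.39 (−0.158 to 0.938). It was at 0.20 without mutant replicate 1, and its dimmer kept probe differed by 0.10 over all arrays. Cir1, a corepressor gene, was at 0.25, with its other kept probes at −0.12 and 0.04. Without mutant replicate 1, Cir1 was at 0.27 and Maml2 at 0.10. Each of these 6 had a limma adjusted p of 0.997. Hes1 had a difference of 0.39 (−1.02 to 1.80), which turned to −0.23 without mutant replicate 1. Hey1 had one of 0.03 (−0.488 to 0.549), which turned to −0.145 without that array.

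**Figure D5:**
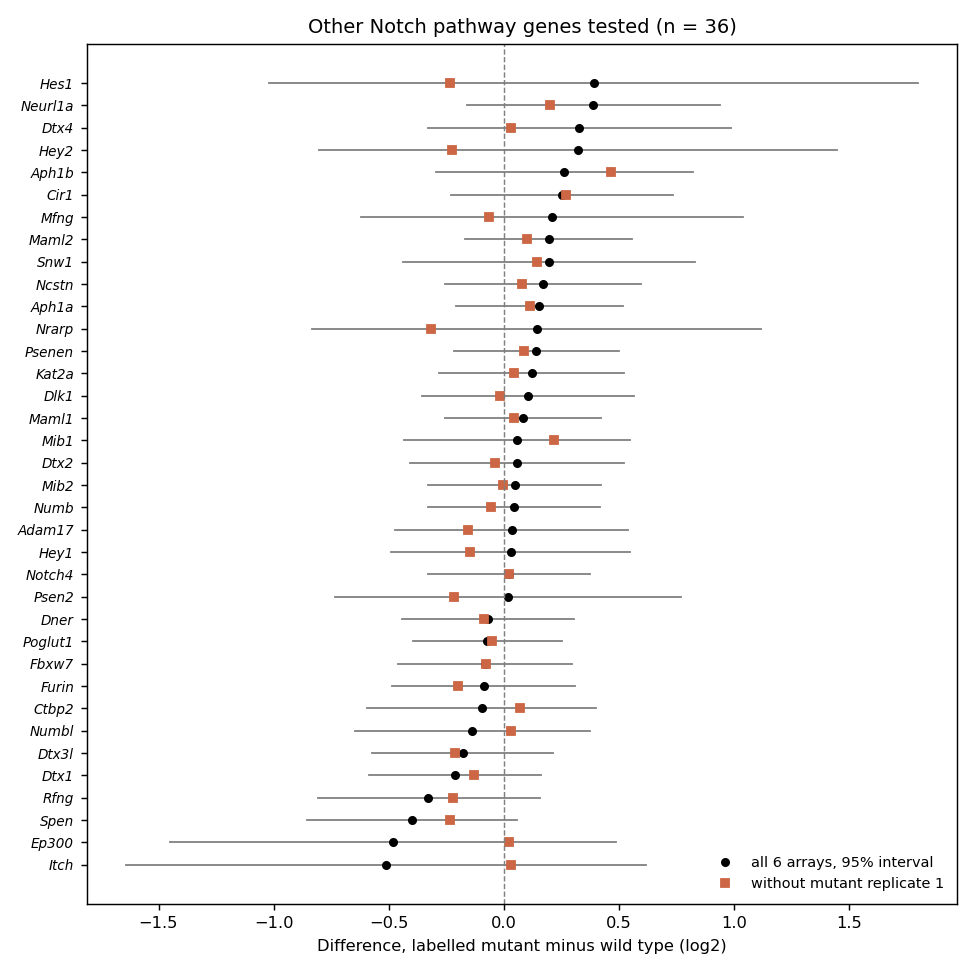
Difference between the groups (horizontal axis, log2) for the 36 other Notch pathway genes tested, with 95% confidence intervals over all 6 arrays (black) and the difference without mutant replicate 1 (orange). Every interval over 6 arrays includes 0, and Hes1, Hey2, Nrarp, Ep300 and Itch are among the genes whose difference changes sign when that array is left out.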

How the data were processed

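Gene expression was measured on 6 single-colour Illumina bead arrays, 3 per group, with groups and replicate numbers taken from the sample titles. Per the labels, amplification used the Illumina TotalPrep kit with a biotin label. The authors deposited, for every probe on every array, 1 intensity with its detection p-value, not normalized as the deposited table is named, with array medians from 97.7 to 109.8. A second deposited table holds the authors' normalized intensities, which quantile normalization of the first gave within 1.43% for every probe; no source used here names the scanner software or slides.

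In limma 3.58.1 (R 4.3.3), neqc applied normexp background correction informed by the detection p-values (offset 16), quantile normalization and log2. Probes detected at a p under 0.05 on at least 3 arrays were kept, 19735 of 45281, and signal over background and the number of arrays limit the precision; 19307 to 20307 probes were detected per array. A gene was represented by its brightest kept probe, and groups were compared by lmFit and eBayes, fitting genotype alone, at a threshold of 0.05 on the adjusted p. Symbols came from the platform annotation, which gave 34885 probes a single symbol and 18 several, leaving 10378 unnamed here; promoters are from RefSeq, GRCm38.p6. Marker sums add normalized intensities on a linear scale over a list's tested genes. The limma test was tested on simulated data.

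The members, the list of 55 further pathway genes and the 10 marker lists were chosen with earlier results of these data known. Named are all members, Rbpj, Maml1, Maml2, Hes1, Hey1, Lfng and the 3 further pathway genes with the smallest p in each direction; the 2 genes of nearest pattern are given for members detected on all arrays that span over 1 log2 unit. The alternatives were other background corrections, normalizations, filters, variance models, array weights, a replicate block, and arrays left out.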

Additional observations from a re-analysis of the deposited data

How the results depend on the processing

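No member and no further pathway gene passed under any of the 20 alternatives, with a smallest limma adjusted p of 0.834 for both. Over all features the count was 0 except for 1 feature, not a pathway gene, under median scaling and 1 without mutant replicate 3, so that leaving out 1 array gave 0 to 1; between 139 and 829 features had an unadjusted p under 0.05. Dll1, Jag1 and Maml3 stayed lower under every alternative that gave a value (20, 19 and 19), with Dll1 from −0.53 to −0.14, Jag1 from −0.44 to −0.098 and Maml3 from −1.42 to −0.58. The stricter filter, a detection p under 0.01 on all 6 arrays, left out Maml3 and Jag1, and 2 members were then lower. Leaving out 1 array gave 3 to 7 members lower, 7 of them without mutant replicate 1, also with normalization redone over 5 arrays, an alternative chosen after seeing the data. Leaving out 1 array moved Notch1 from −0.235 to 0.62 and Notch3 from −0.437 to 0.53 (−0.435 without mutant replicate 1 as first normalized), and moved Hes5 from −0.196 to 0.66, Jag2 from −0.23 to 0.36 and Hes6 from −0.14 to 0.03, each across 0. Notch3 was at −0.009 without wild-type replicate 2, and Hes6 at 0.031 without wild-type replicate 1 and 0.006 without mutant replicate 3. With array weights Notch1 was at −0.069 and Notch3 at −0.33, and with both arrays numbered 1 left out Notch3 was at −0.21; the cause was not tested. With the replicate number as a block, 0 members passed and 4 were lower, Maml3 had an adjusted p of 0.955, and 378 features had an unadjusted p under 0.05 where 250 had without it. Deviations of same-numbered arrays correlated at 0.320, 0.013 and 0.103 for numbers 1, 2 and 3 and those of wild-type replicate 2 and mutant replicate 3 at 0.393. The labels tie no wild-type sample to a mutant one. With 3 arrays per group these correlations cannot settle whether the numbers pair the samples. Signal over background limits Notch2, Dll3, Jag1 and Rbpj most.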
